A study of Mus musculus with 16 samples.

Results

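The data described here come from resting mouse mast cells that received an antibody against the receptor TIM-3 for 2 h, compared with the same kind of cells that received control IgG. The comparison rests on 4 of the 16 arrays of the series, chosen by their labels: anti-TIM-3 treatment, no IgE or antigen, and no 16 h mark. The mast cells were grown from mouse bone marrow for more than 4 weeks in medium with 10% serum, interleukin 3 (IL-3, 5 ng/ml) and stem cell factor (SCF, 40 ng/ml). The labels give a purity above 90%. Strain, genotype and age of the mice are not given in the sources used here, and all groups carried the same IL-3, SCF and serum. The antibody was a polyclonal goat agonist at 15 ug/ml and the control was goat IgG at 15 ug/ml. Each array held RNA of anti-TIM-3-treated cells in Cy5 and RNA of IgG-treated cells in Cy3. The other 12 arrays held the same pair of antibodies in resting cells at 16 h, and in activated cells at 2 h and at 16 h, 4 arrays each. Activated cells had been loaded with IgE (5 ug/ml) for 1 h before antigen, DNP-HSA at 100 ng/ml, was added.

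Dyes were never exchanged, so within these 4 arrays an effect of anti-TIM-3 and a preference of a probe for Cy5 cannot be told apart. A preference that is equal on every array cancels when the ratios of 2 groups are subtracted, and the 4 groups share no array. For this reason the ratio at 2 h in resting cells was set beside the other 3 groups throughout. A positive log2 ratio means a higher level with anti-TIM-3, and "rose" and "fell" are used of ratios with a limma adjusted p under 0.05 against a ratio of 0. Whether replicates were separate cultures or animals is not in the labels, and a p-value here reflects only how far these samples spread, which may be technical. In cultures measured in bulk, fewer cells of a type and less RNA per cell cannot be told apart.

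TIM-3, encoded by Havcr2, is a surface receptor with an immunoglobulin domain and a mucin stalk, whose cytoplasmic tail is phosphorylated on tyrosines after ligand binding. Mast cells are tissue sentinels that carry the high-affinity IgE receptor and store proteases, histamine and proteoglycans in granules. Stimulation of a mast cell is followed within minutes to hours by transcription of immediate early genes such as the Egr, Nr4a and AP-1 families, then of chemokines and cytokines and of feedback inhibitors that dampen MAP kinase signalling.

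The upstream sequences of 5 genes that rose in resting cells at 2 h, and whose ratio was higher at 2 h than at 16 h, are shown as examples of genes that separate the times. Those of Ccl2, Ccl4, Ccl7 and Egr3 are not shown. Each is the 250 bases before the transcription start in the RefSeq annotation of mouse build GRCm38.p6, written in the direction of transcription. Capitals mark matches, on either strand, to the AP-1 site TGANTCA, the EGR site GCGNGGGCG or the kappaB site.
Ccl3, chr11:83649379-83649628, minus strand: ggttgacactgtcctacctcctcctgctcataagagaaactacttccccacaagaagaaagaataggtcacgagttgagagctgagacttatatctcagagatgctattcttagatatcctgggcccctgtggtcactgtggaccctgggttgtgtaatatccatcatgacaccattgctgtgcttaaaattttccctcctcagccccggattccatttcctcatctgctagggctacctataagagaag
Nr4a1, chr15:101266596-101266845, plus strand: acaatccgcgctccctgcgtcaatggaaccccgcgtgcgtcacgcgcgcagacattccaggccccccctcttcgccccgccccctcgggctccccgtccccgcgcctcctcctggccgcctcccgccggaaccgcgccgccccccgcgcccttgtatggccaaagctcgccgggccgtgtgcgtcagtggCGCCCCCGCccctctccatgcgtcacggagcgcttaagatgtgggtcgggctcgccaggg
Rgs2, chr1:144004150-144004399, minus strand: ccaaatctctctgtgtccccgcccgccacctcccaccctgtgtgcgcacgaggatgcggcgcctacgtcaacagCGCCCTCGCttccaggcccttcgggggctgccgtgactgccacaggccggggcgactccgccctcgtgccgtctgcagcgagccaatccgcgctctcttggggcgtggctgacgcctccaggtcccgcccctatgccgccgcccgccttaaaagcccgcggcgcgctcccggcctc
Ftl1, chr7:45459887-45460136, minus strand: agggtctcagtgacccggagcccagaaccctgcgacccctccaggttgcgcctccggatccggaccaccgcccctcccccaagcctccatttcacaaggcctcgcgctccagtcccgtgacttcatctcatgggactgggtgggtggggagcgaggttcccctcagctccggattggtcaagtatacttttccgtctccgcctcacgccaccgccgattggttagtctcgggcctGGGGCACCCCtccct
Il6, chr5:30012864-30013113, plus strand: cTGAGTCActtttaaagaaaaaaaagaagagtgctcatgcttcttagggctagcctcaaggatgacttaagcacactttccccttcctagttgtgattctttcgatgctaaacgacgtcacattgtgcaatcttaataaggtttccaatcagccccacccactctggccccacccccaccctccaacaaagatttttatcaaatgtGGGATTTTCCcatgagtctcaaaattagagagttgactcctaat

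Nr4a1 had an EGR match 60 to 52 bases before its start, and Rgs2 had one 176 to 168 bases before its start. Il6 had an AP-1 match 249 to 243 bases before the start and a kappaB match 44 to 35 bases before it. Ftl1 had a kappaB match, which read as one on either strand, 15 to 6 bases before the start. The stretch shown for Ccl3 held none of the 6 motifs searched. These were the 3 named, the cAMP response element TGACGTCA, the CArG box and the antioxidant response element TGACNNNGC. Of the 34 genes with a higher ratio at 2 h than at 16 h, 26 had an entry in the promoter table. An EGR match was found in 6 of the 26 (Nr4a1, Rgs2, Maff, Hic1, Nomo1 and Nfil3), against 5.33% of all 27025 genes in the table. A kappaB match was found in 6 (Ftl1, Csf1, Il6, Maff, Hic1 and Pdgfa), against 8.23% of all genes. Matches to the antioxidant response element were found in 8, against 11.5%, to the AP-1 site in 3, against 7.82%, to the cAMP response element in 1, against 1.77%, and to the CArG box in 0, against 1.62%. Of 59 cytosolic ribosomal protein genes in the promoter table, 7 had an EGR match, 3 a kappaB match and 7 an antioxidant response element match. Of the same 59, 3 had an AP-1 match, 6 a cAMP response element match and 1 a CArG box match. A match describes letters only and does not show that a factor binds there.

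The 4 arrays were of like quality. In Cy3, 53.7% to 62.1% of all spots stood well above their background, in Cy5 57.2% to 67.7%, and saturation was reached by 0. Spiked-in control RNAs of known ratio gave correlations of 0.989 to 0.995 between measured and nominal log ratios. Over all genes, the log2 ratios of pairs of these arrays correlated at 0.014 (replicates 2 and 3) to 0.715 (replicates 2 and 4). Replicate 3 correlated at 0.517 to 0.643 with the 4 arrays of resting cells at 16 h, above its correlation with any array of its own group (0.474 at most). Without replicate 3, 2060 genes passed at 2 h, against 2391 with it.

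After loess, which centres the ratios of each array on 0, most genes of resting mast cells lay near 0. The changes that passed were mostly small. Of 17100 genes tested, 2391 (14%) passed, 1208 higher (7.06%) and 1183 lower (6.92%). The median size of a rise was 0.21 and of a fall 0.19 on the log2 scale. A rise of at least 2-fold was measured for 7 genes, which were Ccl3, Ccl2, Aldoa, Lrrc58, Ftl2-ps, Rpl41 and Ccl4, and a fall of that size for 0. At 1.5-fold the counts were 69 higher and 3 lower. All 4 arrays had the same sign for 1107 of the rises and 1086 of the falls. Without replicate 1, which had the largest influence, 1258 genes passed, and a fit of these 4 arrays alone gave 369 (268 higher and 101 lower). Centring each array on its median spot with no loess moved the median gene to 0.21, and 10143 of 10491 calls were then higher. The balance of rises and falls is therefore set by the scaling, and several of the falls described below, large ones included, change sign with it.

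Many of the rises were not particular to resting cells at 2 h. Of the 1208 rises, 386 (32%) were higher in all 4 groups, which is 2.26% of the genes tested. Of the 1183 falls, 286 (24.2%) were lower in all 4 groups, or 1.67% of the genes tested. By themselves the other groups had calls for 33.3% of genes (activated, 2 h; 17.1% higher and 16.3% lower), 21.6% (resting, 16 h; 11.7% and 9.94%) and 30.1% (activated, 16 h; 16.9% and 13.2%). A rise was shared with no other group for 170 genes (14.1%), with activated cells at 2 h alone for 214 (17.7%), with resting cells at 16 h alone for 46 (3.81%) and with activated cells at 16 h alone for 63 (5.22%). Among the 69 rises of at least 1.5-fold, 54 (78.3%) were higher in all 4 groups, and 26 of the 69 were cytosolic ribosomal protein genes. The probes of shared rises were bright: their median log2 level with IgG was 12.7, against 10.54 for all rises and 8.95 for all genes tested. The part of brightness and of dye preference in the shared rises was not tested. For the 386 genes the median size of the difference between resting cells at 2 h and at 16 h was 0.07, and 5 of the 386 differed between those groups.

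**Figure D1:**
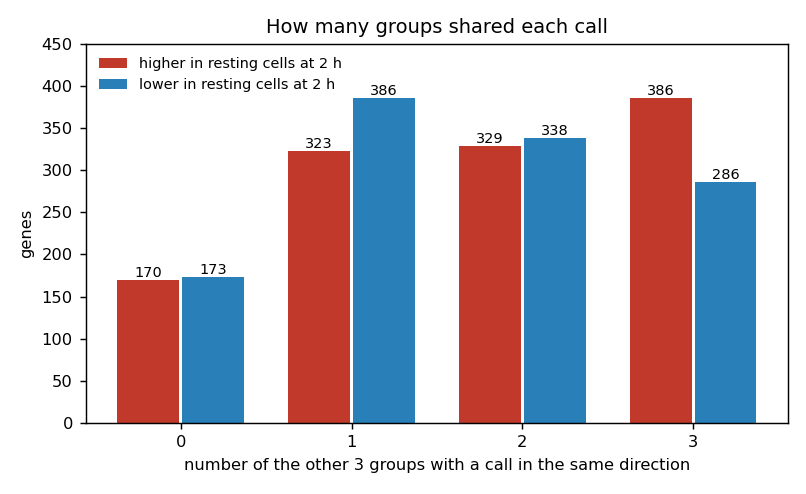
Number of genes called higher (red) or lower (blue) in resting cells at 2 h, by how many of the other 3 groups had a call in the same direction. The bar for rises shared with all 3 other groups holds 386 genes and the bar for rises shared with none holds 170.

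More than 1 probe was kept for 5874 of the 17101 genes, and the values here are those of each gene's brightest probe. Of the 1208 genes that rose, 535 had other probes. Every other probe had a ratio above 0 in 297 of these and below 0 in 146. Values of other probes are given beside many of the genes named below.

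The receptor's own gene was measured first. Havcr2 had log2 ratios of 0.15, 0.20, -0.16 and -0.01 on replicates 1 to 4. Replicates 1 and 2 were above 0 and replicates 3 and 4 below it. The mean was 0.04 ± 0.16 (SD, n = 4; limma adjusted p = 0.666), and a second Havcr2 probe gave 0.06. With no loess the value was 0.62 (adjusted p = 1.12e-06), against a median gene of 0.21 under that centring. The ratio was lower than in activated cells at 2 h by 0.55 (adjusted p = 0.000331) and was not separated from that at 16 h (difference 0.28, 95% interval 0.11 to 0.45, adjusted p = 0.0989). Of the 10 measured genes of the TIM family, its ligands and its adaptors, 0 rose and 1 fell. This was Ptdss1, which makes the TIM-family ligand phosphatidylserine (-0.23), and this call was lost when replicate 1 (adjusted p = 0.158), 2 (0.124) or 4 (0.0603) was left out. Lgals9, the gene of the TIM-3 ligand galectin-9, was at -0.03 (adjusted p = 0.903).

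Chemokine genes were prominent among the largest rises. Of 22 measured chemokines, 8 rose (36.4%, against 7.06% of all genes) and 1 fell, with a list median of 0.08 against 0.00 for all genes; without replicate 3, 6 rose. The CC chemokines that draw monocytes and T cells led them.

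Ccl3 (macrophage inflammatory protein 1-alpha) had log2 ratios of 1.22, 1.44, 1.15 and 1.32 on replicates 1 to 4. All 4 arrays lay above every array of resting cells at 16 h, which ran from -0.12 to 0.21, and below every array of activated cells at 2 h, which ran from 2.46 to 2.94. The mean was 1.29 ± 0.13 (SD, n = 4), a 2.44-fold rise (limma adjusted p = 3.76e-09). The rise exceeded that at 16 h by 1.24 (95% interval 1.04 to 1.45, adjusted p = 9.49e-06).

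Ccl4 (macrophage inflammatory protein 1-beta), the neighbour of Ccl3 in the chemokine cluster, had ratios of 0.86, 1.42, 0.60 and 1.13. These arrays were more uneven than for Ccl3, with replicate 3 lowest, and all lay above the arrays of resting cells at 16 h (-0.59 to 0.02). The mean was 1.00 ± 0.35 (SD, n = 4; adjusted p = 4.34e-05). It exceeded the ratio at 16 h by 1.24 (95% interval 0.87 to 1.60, adjusted p = 0.00388; 0.0734 in a fit of only these groups).

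Ccl2 (monocyte chemoattractant protein 1) had ratios of 1.14, 1.28, 1.00 and 1.11, a mean of 1.13 ± 0.12 (SD, n = 4) or 2.19-fold (adjusted p = 3.72e-10). It was one of the rises shared by all 4 groups, at 0.44 in resting cells at 16 h, 2.30 in activated cells at 2 h and 0.25 in activated cells at 16 h. All 4 arrays at 2 h lay above all arrays of both 16 h groups, and the difference from resting cells at 16 h was 0.69 (adjusted p = 0.000144).

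Ccl7 (monocyte chemoattractant protein 3) had ratios of 0.95, 0.63, 1.21 and 0.83, a mean of 0.90 ± 0.24 (SD, n = 4; adjusted p = 4.43e-06), and a second probe gave 0.94. Resting cells at 16 h ran from 0.21 to 0.31, below all 4 arrays at 2 h. The difference of 0.65 passed narrowly (adjusted p = 0.0421) and did not pass without resting 2 h replicate 1 (0.153) or 4 (0.0602), or without resting 16 h replicate 1 (0.176) or 3 (0.11). Ccl1, a ligand of CCR8, rose by 0.71 ± 0.25 (SD, n = 4; adjusted p = 0.000298), and its difference from 16 h was 0.60 (adjusted p = 0.0775).

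Among the 8 chemokine rises, 7 were also higher in activated cells at 2 h, against 847 of all 1208 rises. Also higher were 3 of the 8 in resting cells at 16 h (11.7% of all genes) and 6 in activated cells at 16 h (16.9%). These percentages are over all genes and not over rises. The 3 that were higher in all 4 groups were Ccl2, Ccl9 and Cxcl3, where 386 of all 1208 rises were (32%).

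**Figure D2:**
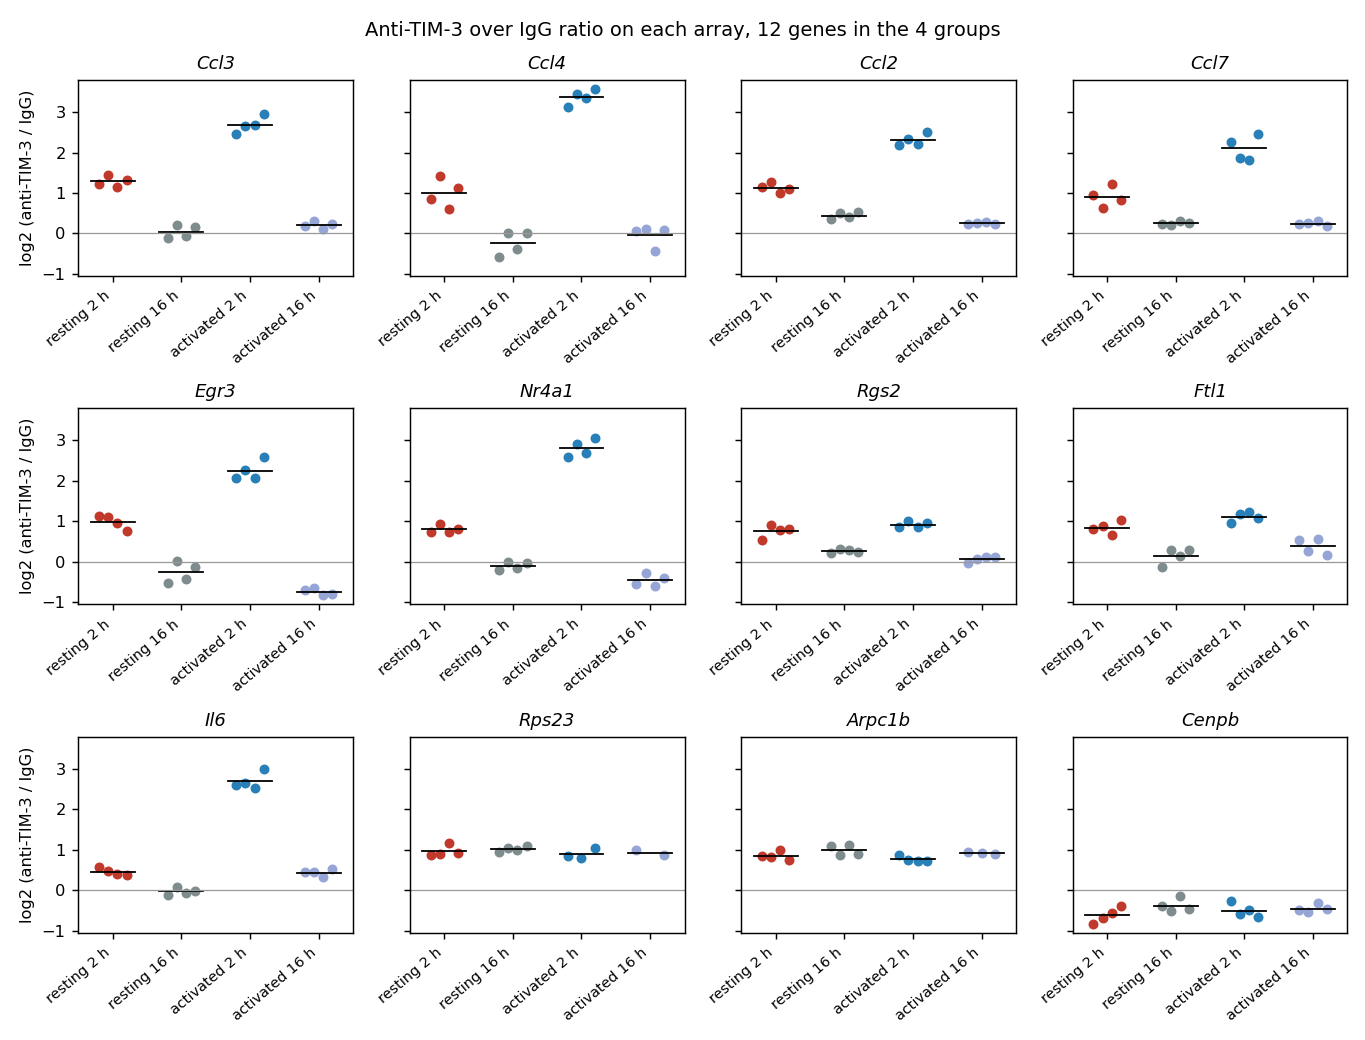
Log2 ratio of anti-TIM-3 over IgG on every array (points) with group means (bars) for 12 genes, by cell state and time. Ccl3, Ccl4, Egr3 and Nr4a1 stand above 0 at 2 h and at or below 0.31 on every 16 h array, while Rps23, Arpc1b and Cenpb have like values in all 4 groups.

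**Figure D3:**
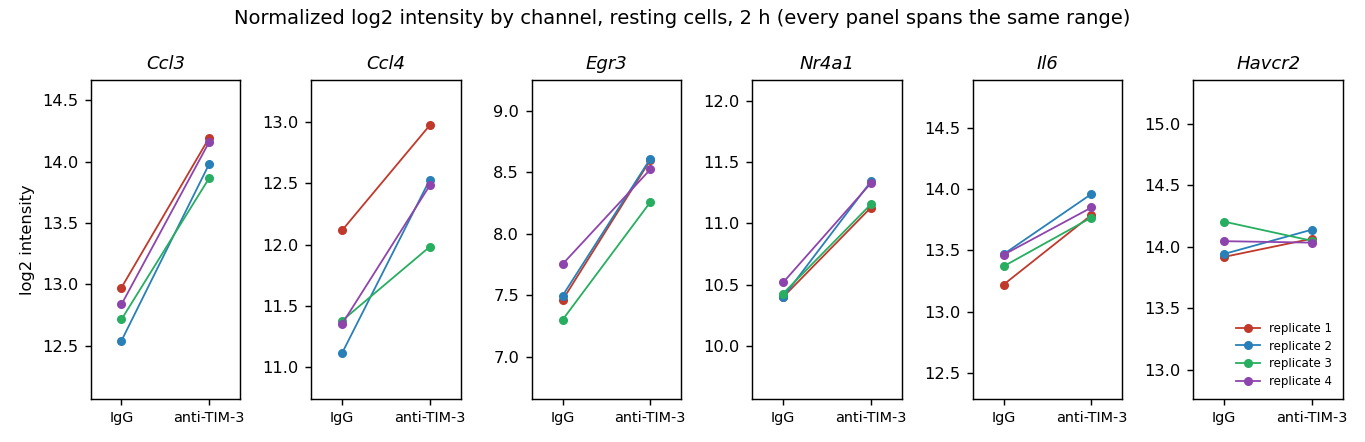
Normalized log2 intensity with IgG (Cy3) and with anti-TIM-3 (Cy5) on each of the 4 arrays, a line per array, for 6 genes. The lines of Ccl3, Ccl4, Egr3, Nr4a1 and Il6 rise on all 4 arrays, and those of Havcr2 go up on 2 arrays and down on the other two.

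Of 21 measured immediate early transcription factors of the Egr, Nr4a and AP-1 families and their co-regulators, 10 rose (47.6%) and 0 fell, with a list median of 0.12. In a fit of these 4 arrays alone 6 rose. All 10 were also higher in activated cells at 2 h, against 847 of all 1208 rises. In resting cells at 16 h 2 of the 10 were higher, and 0 were higher in all 4 groups, against 386 of all 1208 rises.

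Egr3, a zinc-finger factor induced by calcium and MAP kinase signals, had ratios of 1.14, 1.12, 0.96 and 0.77 on replicates 1 to 4. All 4 arrays lay above those of resting cells at 16 h (-0.51 to 0.03) and below those of activated cells at 2 h (2.07 to 2.60). The mean was 1.00 ± 0.17 (SD, n = 4; adjusted p = 1.37e-06), and the difference from 16 h was 1.26 (95% interval 0.99 to 1.52, adjusted p = 0.000144). A second Egr3 probe stood at 0.02, so the probes disagreed.

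Nr4a1 (Nur77), an orphan nuclear receptor and textbook early gene, had ratios of 0.73, 0.94, 0.73 and 0.81. Its arrays were close together and did not overlap those of resting cells at 16 h, which ran from -0.20 to 0.00. The mean was 0.80 ± 0.10 (SD, n = 4), a 1.74-fold rise (adjusted p = 6.87e-07), and the difference from 16 h was 0.90 (95% interval 0.70 to 1.10, adjusted p = 0.000198).

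Egr1, the founding early growth response factor, had ratios of 0.51, 0.41, 0.78 and 0.73 and a mean of 0.61 ± 0.18 (SD, n = 4; adjusted p = 0.000644). All 4 exceeded the arrays of resting cells at 16 h (-0.05 to 0.25), yet the difference of 0.46 did not pass (adjusted p = 0.104). The AP-1 subunits Fos and Junb rose by 0.49 and 0.45, and a second Junb probe gave 0.64. Fos was as high in resting cells at 16 h (0.48; difference 0.01, 95% interval -0.23 to 0.24). Maff, a small Maf factor, rose by 0.43 and exceeded its ratio at 16 h by 0.46 (adjusted p = 0.049), a call that ended without resting 2 h replicate 1 (adjusted p = 0.184), 2 (0.108) or 4 (0.0602), or resting 16 h replicate 1 (0.19) or 3 (0.185).

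Other early response genes were mixed. Of 28 measured, 8 rose (28.6%) and 2 fell, with a median of 0.07. Rgs2, a regulator that shortens signalling of G proteins, had ratios of 0.53, 0.91, 0.80 and 0.82. Replicate 1 was lowest, and all 4 arrays exceeded those of resting cells at 16 h (0.23 to 0.32). The mean was 0.76 ± 0.16 (SD, n = 4), 1.70-fold (adjusted p = 2.74e-08), with a difference from 16 h of 0.49 (adjusted p = 0.00388). A second Rgs2 probe was at -0.03, and with a gene's probes averaged the difference from 16 h was 0.29 (adjusted p = 0.0555). The related Rgs16 rose by 0.57, with replicate 3 at 0.92 and the others between 0.36 and 0.56, and exceeded 16 h by 0.54 (adjusted p = 0.0194). That difference did not pass without resting 2 h replicate 2 (adjusted p = 0.052) or resting 16 h replicate 1 (0.0896) or 3 (0.0764). Rgs1 rose by 0.40 and was higher in all 4 groups. Plk3, a stress-responsive polo-like kinase, rose by 0.32 and exceeded 16 h by 0.54 (adjusted p = 0.00725), and the pseudokinase gene Trib1 rose by 0.26. The 2 falls were Per1, a circadian clock gene (-0.22), and Pim1, a survival kinase gene controlled by STAT5 (-0.45 ± 0.20, SD, n = 4), whose other probe stood at 0.01.

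Of 13 measured genes that restrain MAP kinase signalling, 5 rose (38.5%) and 0 fell, with a median of 0.16, and 2 rose in a fit of these 4 arrays alone. Spry2, an inhibitor of receptor tyrosine kinase signalling, had ratios of 0.75, 0.66, 0.43 and 0.33 (mean 0.54 ± 0.20, SD, n = 4; adjusted p = 0.00111). A second Spry2 probe gave 0.07. Dusp2 (0.39) and Dusp1 (0.27), phosphatases that switch off ERK, p38 and JNK, rose on all 4 arrays, as did Dusp16 (0.16), whose other probes were at 0.14 and 0.01 and which did not pass without replicate 2 (adjusted p = 0.0599). All 5 were also higher in activated cells at 2 h, against 847 of all 1208 rises, and 0 of the 5 differed from resting cells at 16 h. Of 20 NF-kappaB subunits and feedback genes, 2 rose (10%) and 0 fell. These were Zfp36 (tristetraprolin, which destabilizes cytokine mRNA) at 0.20, which did not pass without replicate 3 (adjusted p = 0.054), and the inhibitor gene Nfkbib at 0.18.

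Cytokine and growth factor genes stayed mostly near 0. Of 28 measured, 4 rose (14.3%) and 0 fell, with a median of 0.05. Il6, the gene of interleukin 6, had ratios of 0.57, 0.49, 0.40 and 0.39. All 4 arrays lay above those of resting cells at 16 h (-0.11 to 0.09) and far below those of activated cells at 2 h (2.53 to 3.00). The mean was 0.46 ± 0.09 (SD, n = 4), 1.38-fold (adjusted p = 7.89e-05). The difference from 16 h was 0.48 (adjusted p = 0.0183). It did not pass without resting 2 h replicate 1 (adjusted p = 0.0955) or 2 (0.0552), or resting 16 h replicate 1 (0.0951) or 3 (0.0805).

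Csf1, the macrophage growth factor gene, had ratios of 0.36, 0.24, 0.64 and 0.53, a mean of 0.44 ± 0.18 (SD, n = 4; adjusted p = 4.23e-05), above all arrays of resting cells at 16 h (-0.10 to 0.03). The difference was 0.49 (adjusted p = 0.00711). Csf2, which encodes GM-CSF, was dim: with IgG it was well above background on 1 of the 4 arrays and with anti-TIM-3 on all 4, and its ratio was 0.24 ± 0.09 (SD, n = 4; adjusted p = 0.00552). Centred on the median of the genes tested with no loess it was at -0.02. Other secreted factors outside this list were higher at 2 h than at 16 h. Fst, which encodes the activin-binding follistatin, rose by 0.61 ± 0.12 (SD, n = 4) and exceeded 16 h by 0.52 (adjusted p = 0.00401). Pdgfa, a platelet-derived growth factor chain, rose by 0.37 and exceeded 16 h by 0.35 (adjusted p = 0.00267). Calca, the precursor gene of calcitonin and CGRP, rose by 0.78 ± 0.24 (SD, n = 4; ratios 0.79, 1.09, 0.49 and 0.76), and its second probe gave 0.32. Its difference of 0.63 from 16 h (adjusted p = 0.0375) did not pass without resting 2 h replicate 1 (adjusted p = 0.131), 2 (0.0933) or 4 (0.0603), or resting 16 h replicate 1 (0.181) or 3 (0.16).

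Of 25 measured heat shock and oxidative stress genes, 9 rose (36%) and 0 fell, with a median of 0.14, and 5 of the 9 were higher in all 4 groups. In a fit of these 4 arrays alone 3 rose. The ferritin light chain gene Ftl1 had ratios of 0.82, 0.88, 0.66 and 1.03, all above the arrays of resting cells at 16 h (-0.12 to 0.30). Its mean was 0.85 ± 0.15 (SD, n = 4; adjusted p = 1.28e-06), and the difference from 16 h was 0.70 (adjusted p = 0.00608). Ftl2-ps, a near-identical copy, gave 1.04, and which of the copies the probes measured is uncertain. The ferritin heavy chain gene Fth1 rose by 0.63 (n = 3, replicate 2 left out as an outlier spot) and was at 0.60 in resting cells at 16 h (difference 0.03, adjusted p = 0.84). Sod1, which removes superoxide, rose by 0.47, though its other probes were at 0.03 and 0.05. Hmox1, which degrades haem, was uneven, at 0.58 and 0.82 on replicates 1 and 3 and at 0.09 and 0.08 on replicates 2 and 4 (mean 0.39; adjusted p = 0.00553, or 0.177 in a fit of these 4 arrays alone). The autophagy receptor gene Sqstm1 was uneven the other way, at 1.07 and 0.76 on replicates 2 and 4 and at 0.19 and 0.25 on replicates 1 and 3 (mean 0.57). The Sqstm1 call was lost with the scanner software's log ratio and in a fit of these 4 arrays alone (adjusted p from 0.115 to 0.240).

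Glycolysis genes went both ways, with 4 rises (14.8%) and 4 falls among 27. Aldoa, the muscle-type aldolase, had ratios of 1.13, 1.10, 1.15 and 1.12, the tightest of the 12 largest rises. Its mean of 1.12 ± 0.02 (SD, n = 4; 2.18-fold, adjusted p = 2.57e-10) lay above resting cells at 16 h (0.68) by 0.45 (adjusted p = 0.00456), and it was higher in all 4 groups. A second Aldoa probe gave 0.62. Ldha, lactate dehydrogenase A, rose by 0.68, while its other probe was at -0.02, and the glucose transporter gene Slc2a1 rose by 0.35. Eno1, enolase, fell by 0.46. Slc6a9, a glycine transporter gene, rose by 0.35 (ratios 0.40, 0.42, 0.21 and 0.38) and exceeded 16 h by 0.56 (adjusted p = 0.00186). With the scanner software's log ratio its rise was 0.11 (adjusted p = 0.239).

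Surface receptors of mast cells rose in part. Of 24 measured, 8 rose (33.3%) and 2 fell, with a median of 0.09, and 4 of the 8 were higher in all 4 groups. Cd63, a granule-membrane tetraspanin that appears at the surface on degranulation, had ratios of 0.87, 0.82, 0.78 and 0.90 (mean 0.84 ± 0.05, SD, n = 4; adjusted p = 2.57e-10). It stood at 0.66 in resting cells at 16 h. Fcer1a, the IgE-binding chain of the high-affinity IgE receptor, had ratios of 0.79, 0.47, 1.42 and 0.52. Replicate 3 was far above the others, and it was the array that resembled resting cells at 16 h, where Fcer1a averaged 1.33. The mean at 2 h was 0.80 ± 0.44 (SD, n = 4; adjusted p = 0.00122, or 0.0603 in a fit of these 4 arrays alone), and 0.59 without replicate 3 (adjusted p = 0.00588). The Fcer1a call was also lost with the scanner software's log ratio (adjusted p = 0.0702). Of the other receptor chains, Ms4a2, the beta chain, was at -0.08 (adjusted p = 0.178), and Fcer1g, the gamma chain, was measured on only 2 arrays at 0.24. The sign of Ms4a2 turned with no loess and with centring on the median of the genes tested (adjusted p from 6.90e-06 to 0.000566). The chains were not tested against each other.

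Il1rl1, the receptor for interleukin 33, had ratios of 0.46, 0.76, 0.80 and 0.75 (mean 0.69 ± 0.16, SD, n = 4; adjusted p = 3.71e-07), but its other probes were at -0.08 and 0.09. The common beta chains Csf2rb2 (0.79) and Csf2rb (0.72, n = 3) are near-identical, and 2 other Csf2rb probes were at -0.24 and -0.07. Il4ra, the interleukin 4 receptor chain, fell by 0.32, and its sign turned with no loess, to a ratio of 0.27 (adjusted p = 0.00299). Kit, the SCF receptor gene, was at 0.19 (adjusted p = 0.212), and at 0.87 with no loess, against a median gene of 0.21 there.

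Granule and mediator genes that rose were nearly all shared between the groups. Of 25 granule proteases and proteoglycans, 6 rose (24%) and 1 fell, and all 6 were higher in all 4 groups. Cma1, a chymase gene, rose by 0.66 (n = 3) and its other probe gave 0.27. Srgn, the serglycin core protein that holds proteases in granules, rose by 0.47 and Mcpt8 by 0.33. The Srgn call was lost with the scanner software's log ratio (adjusted p = 0.1835). Gzmb (0.45, n = 3) did not pass without replicate 3 (adjusted p = 0.0724). Its call was also lost with the scanner software's log ratio and in a fit of these 4 arrays alone (adjusted p up to 0.361). The cysteine protease gene Ctsl fell by 0.27, a sign that turned with no loess (0.25). Cpa3, carboxypeptidase A3, was at 0.34 (adjusted p = 0.0511), and it passed without replicate 2 (0.41, adjusted p = 0.0461). Of 16 genes of histamine, serotonin and eicosanoid synthesis, 3 rose (18.8%) and 1 fell. Alox5, which makes leukotrienes, rose by 0.45 and Tph1, which makes serotonin, by 0.54 (n = 3), with other probes of Tph1 at -0.03 and of Alox5 at 0.39 and -0.05. The Tph1 call was lost with the scanner software's log ratio and with its probes averaged (adjusted p from 0.203 to 0.288). Ptgs2, the inducible cyclooxygenase, rose by 0.37 (ratios 0.47, 0.42, 0.38 and 0.22), and its second probe gave 0.35. Hdc, which makes histamine, ranged from -0.35 to 0.53 over the 4 arrays (mean 0.15, adjusted p = 0.365), and passed without replicate 1 (0.31, adjusted p = 0.0292).

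Signalling and lineage genes changed little. Of 30 genes of the IgE receptor pathway, 2 rose (6.67%, near the 7.06% of all genes) and 2 fell. The Src-family kinase gene Lyn rose by 0.26 on close arrays (0.28, 0.28, 0.27 and 0.22), though its other probe was at -0.09. The adaptor gene Clnk fell by 0.33, with 0.13 in its place with no loess. Of 16 lineage transcription factors 2 rose (12.5%) and 2 fell: Tal1 rose by 0.39 and Gata2 by 0.36, while Tfe3 fell by 0.24 (0.01 with no loess). Gata2 was at 0.05 with the scanner software's log ratio (adjusted p = 0.545), and its second probe gave 0.12. The Tal1 call was lost with that log ratio and in a fit of these 4 arrays alone (adjusted p from 0.0731 to 0.0804). Mitf was at 0.09, with replicates 1 and 3 at 0.42 and 0.34 and replicates 2 and 4 at -0.20 and -0.18. Among 10 inhibitory receptors 3 rose (30%, against 7.06% of all genes) and 0 fell. Pirb, a paired immunoglobulin-like receptor, led them (0.92, 0.88, 0.65 and 0.69; mean 0.79 ± 0.13, SD, n = 4; adjusted p = 7.43e-08). It was higher in all 4 groups, and its second probe gave 0.51. Cd300lf (0.26, other probe -0.12) did not pass with its probes averaged or in a fit of these 4 arrays alone (adjusted p from 0.0656 to 0.379). Cd200r1 (0.18) did not pass on leaving out any 1 of the 4 arrays or in that fit (adjusted p from 0.0581 to 0.112).

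**Figure D4:**
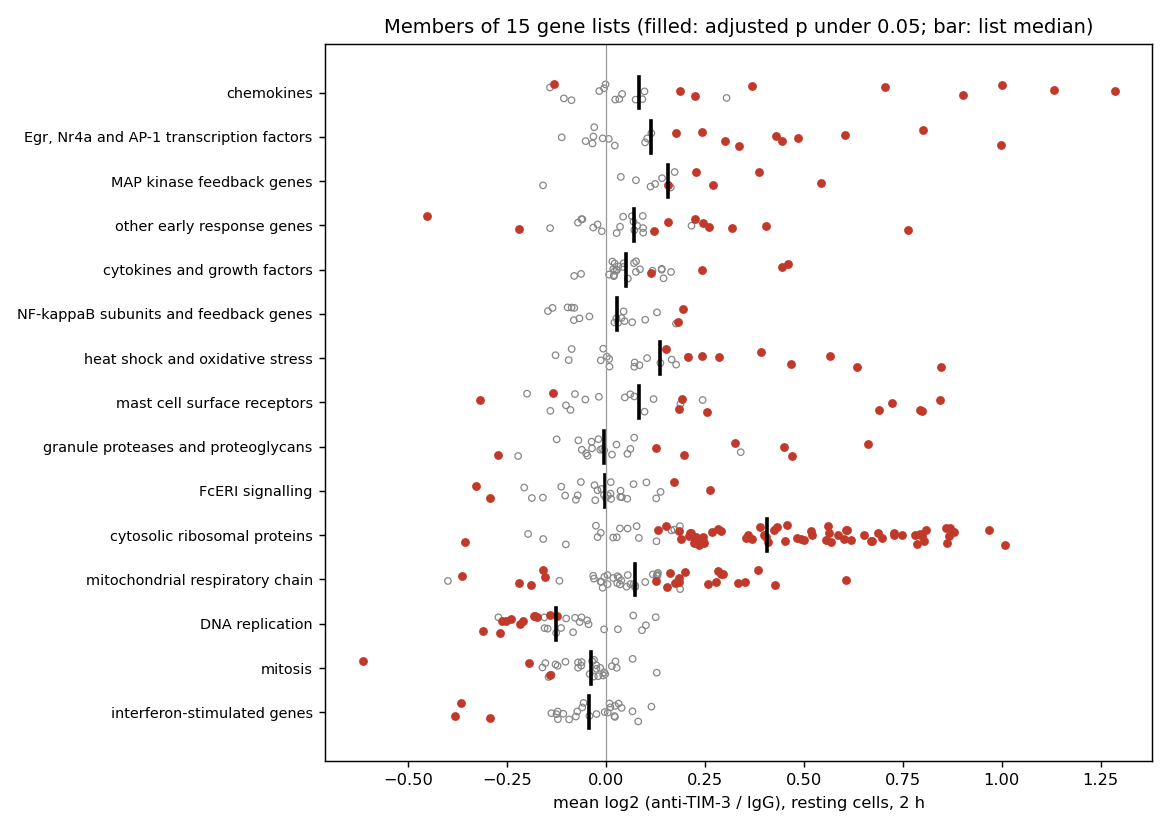
Mean log2 ratio in resting cells at 2 h of every measured member of 15 gene lists. Filled points passed an adjusted p under 0.05, open points did not, and bars mark list medians, which are 0.41 for cytosolic ribosomal proteins and -0.13 for DNA replication.

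Ribosomal protein genes made up the most uniform block of rises, and it was common to all groups. Of 80 measured cytosolic ribosomal protein genes, 63 rose (78.8%) and 1 fell, with a median of 0.41 against 0.00 for all genes. The list median was 0.44 at 16 h in resting cells, 0.39 at 2 h in activated cells and 0.35 at 16 h in activated cells. Of the 63 rises, 50 were higher in all 4 groups, and 0 of the 80 genes differed between resting cells at 2 h and at 16 h. Their probes were bright, with a median log2 level of 15.7 with IgG. With the scanner software's log ratio 33 rose and the list median was 0.14.

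Rps23, of the small subunit, had ratios of 0.87, 0.91, 1.17 and 0.92, with replicate 3 above the others. The mean was 0.97 ± 0.14 (SD, n = 4; adjusted p = 5.31e-08), and the other groups overlapped it at means of 1.02, 0.89 and 0.93. Rpl41, of the large subunit, rose by 1.01 ± 0.09 (SD, n = 4) and was at 0.98 in resting cells at 16 h, measured there on 2 arrays. Rpl12 and Rpl37a rose by 0.87 each on close arrays. Rack1, a scaffold bound to the small subunit, rose by 0.88, whereas its other probe was at -0.06. Rpl7a rose by 0.81 with its other probes at -0.07 and -0.16, and Rps18 rose by 0.86 (n = 3) with its other probes at 0.06 and 0.63. Of the 63 genes, 31 had other probes, and every other probe was above 0 in 19 and below 0 in 7. Rpl4 was the gene that fell (-0.70, -0.11, -0.61 and 0.00 on replicates 1 to 4; adjusted p = 0.0092), a call lost when replicate 1 (adjusted p = 0.0852) or replicate 3 (0.0567) was left out.

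Further rises were measured in the cytoskeleton and respiratory chain. Of 35 actin cytoskeleton genes 7 rose (20%) and 2 fell, 5 of the rises in all 4 groups. Arpc1b, a subunit of the actin-branching Arp2/3 complex, had ratios of 0.85, 0.82, 0.99 and 0.75 (mean 0.86 ± 0.10, SD, n = 4; adjusted p = 1.08e-08) and overlapped its arrays in the other 3 groups. The myosin genes Myl6 (0.77, n = 3) and Myh9 (0.76) rose too, Myh9 with replicate 3 at 0.39 and the others at 0.84 to 0.91, and with its other probe at -0.05. Of 51 respiratory chain genes 17 rose (33.3%) and 5 fell, and 8 of the 17 were higher in all 4 groups. The counts were 10 and 2 without replicate 1, 6 and 4 with the scanner software's log ratio, and 4 and 0 in a fit of these 4 arrays alone. Cox6a1, a cytochrome oxidase subunit, rose by 0.61, and Atp5b, an ATP synthase subunit, by 0.43, its other probes being at -0.19 and -0.22. Lrrc58, among the 12 largest rises at 1.07, had 3 other probes between -0.07 and 0.01.

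Falls were frequent among DNA replication genes. Of 31 measured, 12 fell (6.92% of all genes did) and 0 rose, with a median of -0.13; with no loess 20 of the 31 rose, at a median of 0.17 against 0.21 for all genes. Without replicate 1, 5 fell and 1 rose, and in a fit of these 4 arrays alone 2 fell. Mcm7, a subunit of the replicative helicase, had ratios of -0.33, -0.28, -0.28 and -0.16. All 4 arrays lay below those of resting cells at 16 h (-0.02 to 0.13). The mean was -0.26 ± 0.07 (SD, n = 4; adjusted p = 7.98e-05), and the difference from 16 h was -0.30 (95% interval -0.40 to -0.20, adjusted p = 0.00905). The helicase subunit genes Mcm6 (-0.27), Mcm2 (-0.17) and Mcm3 (-0.12) and the licensing factor gene Cdt1 (-0.31) fell as well. Leaving out replicate 1 (adjusted p = 0.0916), 2 (0.185) or 4 (0.102) ended the call of Mcm2, and leaving out replicate 1 (0.109) or 3 (0.0908) that of Mcm3. Mcm2 and Mcm3 were lower than at 16 h by 0.37 and 0.25 (adjusted p = 0.0421 and 0.0365). For Mcm2 this difference ended on leaving out resting 2 h replicate 1 (adjusted p = 0.141), 2 (0.105) or 4 (0.0704), or resting 16 h replicate 1 (0.199) or 3 (0.17), and for Mcm3 on leaving out resting 2 h replicate 1 (0.147) or resting 16 h replicate 3 (0.0963). Among 30 mitosis genes 3 fell and 0 rose, and among 27 interferon-stimulated genes 3 fell (11.1%) and 0 rose.

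The largest single falls were modest. Chtf8, part of a clamp loader for sister-chromatid cohesion, had ratios of -0.64, -0.60, -0.78 and -0.44, a mean of -0.62 ± 0.14 (SD, n = 4; 1.53-fold lower, adjusted p = 2.81e-05). Cenpb, which binds centromeric DNA, had ratios of -0.82, -0.67, -0.57 and -0.40 and a mean of -0.61 ± 0.18 (SD, n = 4; adjusted p = 2.61e-05). Its arrays overlapped those of the other 3 groups. Tmem242 fell by 0.61 and its second probe by 0.57. Niban2, Ogfr, Sema6b (a semaphorin) and Psap (prosaposin, a lysosomal activator) fell by 0.54, 0.54, 0.50 and 0.46, and a second Ogfr probe was at -0.20. All 7 of these genes were lower in all 4 groups. Itga2b (-0.51), the integrin alpha-IIb chain, Tyk2 (-0.49), a Janus kinase, Usp5 (-0.49), a deubiquitinase, Edem2 (-0.48) and Fkbp4 (-0.48, with its other probe at -0.04) completed the 12 largest falls, and 0 of the 12 differed from resting cells at 16 h. Among further falls in all 4 groups, Arhgef1 fell by 0.44, Rnd2 by 0.43, Ehmt2 by 0.36 and Ttyh3 by 0.34, the last not without replicate 3 (adjusted p = 0.0845). With no loess Ehmt2 was at 0.22, and the signs of Itga2b, Psap and Ttyh3 turned as well. The calls of Niban2, Ogfr, Fkbp4 and Arhgef1 were lost with no loess.

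The direct comparison of resting cells at 2 h and 16 h isolated a small set of genes. Of 17099 genes, 48 (0.281%) differed, 34 with a higher ratio at 2 h (0.199%) and 14 with a lower one (0.0819%). Of the 34, 32 were rises at 2 h. Of those 32, 26 were also higher in activated cells at 2 h, against 847 of all 1208 rises. In resting cells at 16 h 5 of the 32 (Ccl2, Aldoa, Ftl2-ps, Rgs2 and Nfil3) were higher as well. The remaining 2 of the 34 genes, Midn and Zfr, were at 0.24 and 0.02 at 2 h and at -0.32 and -0.40 at 16 h. Auts2, a regulator of transcription, rose by 0.49 in resting cells at 2 h (its other probe gave 0.11) against -0.06 at 16 h, and was among 3 of the 32 that were also higher than in activated cells at 2 h, with Nomo1 and Trib2. In the other direction, 18 of the 32 were lower than in activated cells at 2 h. Of all 1208 rises, 68 were higher and 98 lower than in activated cells at 2 h. Among the 14 genes with lower ratios, 8 were falls at 2 h and 1, the serpin gene Serpina3g, was a rise (0.18 at 2 h against 0.66 at 16 h, difference -0.47, adjusted p = 0.00484). Leaving out replicate 1 (adjusted p = 0.0519), 2 (0.084) or 4 (0.0512) ended the Serpina3g rise, and the scanner software's log ratio ended both the rise (0.961) and the difference (0.125). Within the 3 slides that held both groups, the 48 differences kept their direction wherever both were measured, which is a description only, since the genes were chosen for this difference on these arrays. The count depended on single arrays: it was 25 without resting 2 h replicate 1 and 1956 without resting 2 h replicate 3. It was 23, 306, 24 and 612 without resting 16 h replicates 1, 2, 3 and 4, and 8 in a fit of only these groups. Ccl2, Ccl3, Egr3 and Nr4a1 passed under all 19 alternatives tried.

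**Figure D5:**
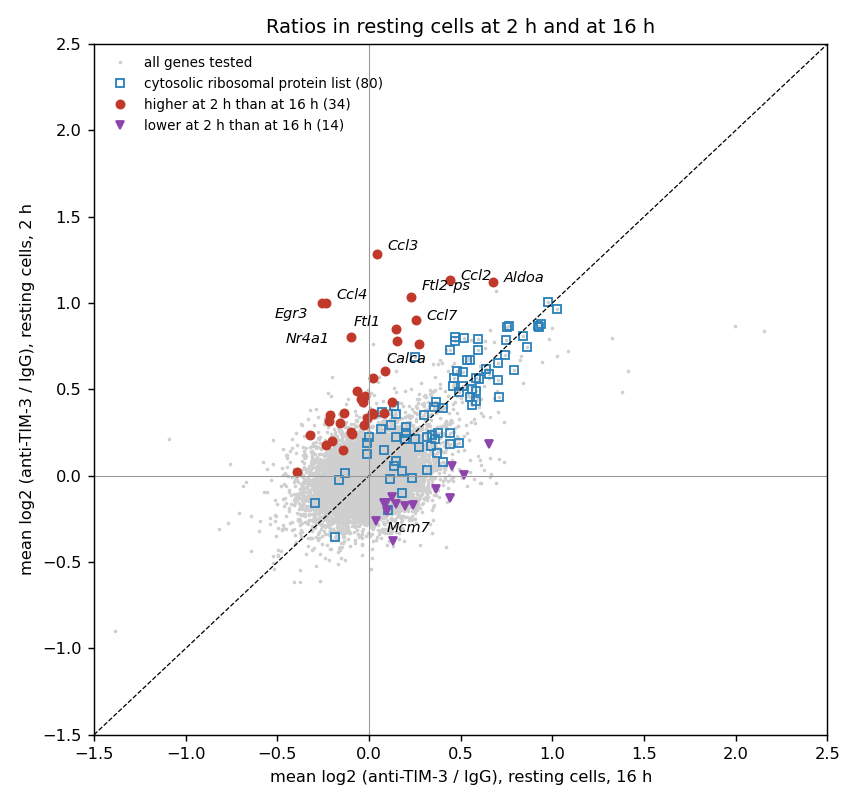
Mean log2 ratio of each gene in resting cells at 2 h (vertical) against 16 h (horizontal), with the dashed line marking equal ratios. Chemokine and early genes such as Ccl3, Ccl4, Egr3 and Nr4a1 lie far above the line, and the 80 ribosomal protein genes (squares) lie along it.

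Compared with activated cells at 2 h, the same antibody gave smaller rises of early and inflammatory genes in resting cells. Of 17100 genes 956 (5.59%) differed, 341 higher in resting cells (1.99%) and 615 lower (3.6%). Among the chemokines 9 of 22 were lower than in activated cells and among the cytokines 22 of 28. With IgG, 16 of these chemokines and 19 of these cytokines were well above background on all 4 resting arrays. In neither channel on any resting array were 3 of the cytokines. A probe could be kept through activated cells alone, and dim ratios are drawn towards 0, so the filter may set part of these 2 counts. The number of genes that differed, 956, was 612 without activated replicate 2 and 576 without activated replicate 4. The split moved with the scaling, to 419 higher and 376 lower with the scanner software's log ratio and to 116 and 696 with no loess.

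Large differences were measured for Ccl4 (1.00 against 3.37), Ptgs2 (0.37 against 2.61), Il6 (0.46 against 2.70), Nr4a1 (0.80 against 2.81) and Dusp2 (0.39 against 1.87), all with adjusted p of 8.32e-08 or less. Csf2 was at 0.24 against 3.33, but with IgG it was well above background on 1 of the 4 resting arrays, so the size of its ratio there is uncertain. In none of these 6 did the arrays of the groups overlap. Genes with higher ratios in resting cells included H1f2, a linker histone, at 0.39 against -0.39 (difference 0.78, adjusted p = 3.02e-07), and Fcer1a at 0.80 against 0.08 (difference 0.71, adjusted p = 0.0418). The Fcer1a difference did not pass without resting replicate 1 (adjusted p = 0.0903) or 3 (0.0972), or activated replicate 2 (0.131), 3 (0.0775) or 4 (0.123). Rgs2, Calca, Aldoa and Cd63 differed between resting and activated cells by 0.16 or less, with adjusted p of 0.235 to 0.945.

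Markers of the labelled cell type and of other marrow cells were compared in the same way. Of 15 mast cell markers 7 rose (46.7%, against 7.06% of all genes) and 0 fell, and all mast cell markers of the list were measured. The median was 0.24, the value of Fcer1g, which was measured on only 2 arrays. All 7 were also higher in resting and in activated cells at 16 h, and 5 of the 7 in all 4 groups. Several of the 7 calls depended on the processing. Those of Fcer1a, Gata2 and Srgn were lost with the scanner software's log ratio. Mcpt4 (0.13) did not pass with its probes averaged, without replicate 1 or 2, or in a fit of these 4 arrays alone (adjusted p from 0.0617 to 0.164). The list median was 0.39 in resting cells at 16 h, 0.16 in activated cells at 2 h and 0.34 in activated cells at 16 h. Of 11 measured macrophage and dendritic cell markers, 3 neutrophil, 2 erythroid and 2 fibroblast markers, 0 rose and 0 fell. Of 5 basophil markers 1 rose (Mcpt8), and of 5 megakaryocyte markers 1 rose (Pf4, 0.22) and 1 fell (Itga2b). Of 4 eosinophil markers 1 rose (Siglecf, 0.24), and of 7 T, B and NK cell markers 1 rose (Cd3e, 0.10). The medians of these other lists lay between -0.08 and 0.07.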

How the data were processed

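RNA of 16 samples was measured on 2-colour Agilent arrays with 45018 spots, of which 1639 were controls. The authors deposited scanner files with a mean and background intensity per channel, made with Feature Extraction 9.1.3.1 per the file headers, and their log10 ratios (red over green). The deposited value table equalled those log10 ratios (largest difference 0). Here mean intensities were background-corrected with normexp (offset 50) and normalized within arrays by loess in limma 3.58.1 (R 4.3.3), with controls and outlier spots at weight 0. Outlier spots were then left out (155 of 68404 gene values). Probes well above background on at least 3 of 4 arrays of a group were kept (25420 of 41174), and each gene took its brightest probe. Probes were named through RefSeq accession (22951), current symbol (6659) or older symbol (3109), and 8455 kept the file's name. One limma model of all 16 arrays, with a mean per group, gave two-sided tests with Benjamini-Hochberg adjustment over all genes, called at 0.05. "No loess" means arrays centred on the median spot.

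Named genes were the 12 largest rises and falls, the largest differences from the other groups, the largest calls in all 4 groups, up to 5 called members of each list, and defining markers. Maff, Rgs16, Fst, Auts2, Pdgfa, Rpl4, Il4ra, Lgals9, Midn and Zfr, and Per1, Pf4, Ccl9, Cxcl3, Siglecf and Cd3e where mentioned, were named after their values were seen. The members and lists were chosen with earlier results of these data known. The statistics were tested on simulated data. Alternatives were other background, scaling, filter, probe, slide, block and sample choices. One item is not reported here.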

Additional observations from a re-analysis of the deposited data

Results flagged for a closer look

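One array stood apart from the other three in 6 of 130 named genes with 4 values, where chance gives about 5%. Rps23 was at 1.17 on replicate 3 and at 0.87 to 0.92 on the others. Arhgef1 was at -0.66 on replicate 2 and at -0.38 to -0.33 on the others. Il1rl1 was at 0.46 on replicate 1 and at 0.75 to 0.80 on the others. Tfe3 was at -0.44 on replicate 2 and at -0.19 to -0.17 on the others. Myh9 was at 0.39 on replicate 3 and at 0.84 to 0.91 on the others. Tpsb2 was at -0.53 on replicate 2 and at -0.14 to -0.11 on the others.

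The ratio of resting cells differed between 2 h and 16 h for 48 genes by the limma test of the difference. Higher at 2 h, on the log2 scale, were Ccl3 (1.24), Ccl2 (0.69), Aldoa (0.45), Ftl2-ps (0.81), Ccl4 (1.24), Egr3 (1.26), Ccl7 (0.65), Nr4a1 (0.90), Ftl1 (0.70), Calca (0.63), Slc6a9 (0.56) and Il6 (0.48). Lower at 2 h were Mettl7a1 (-0.50), Serpina3g (-0.47), Mcm2 (-0.37), Pimreg (-0.31), Mcm7 (-0.30), Mns1 (-0.30), Ipo4 (-0.25), Mcm3 (-0.25) and Nudt7 (-0.24). Second probes of Mettl7a1 and Ipo4 were at 0.01 and 0.00 in resting cells at 2 h, where the probes used were at -0.38 and -0.16.

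The ratio at 2 h differed between resting and activated cells for 956 genes by the same test. Lower in resting cells were Ccl3 (-1.40), Ccl2 (-1.17), Ccl4 (-2.37), Egr3 (-1.26), Ccl7 (-1.20), Nr4a1 (-2.01), Serpina3g (-0.82), Mns1 (-0.22), Csf2 (-3.08), Ptgs2 (-2.24), Il6 (-2.24) and Dusp2 (-1.49). Higher in resting cells were Pimreg (0.24), H1f2 (0.78), BC013561 (0.78), Fcer1a (0.71), Rgs12 (0.52), Gsdme (0.48) and Gnaz (0.47).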

How the results depend on the processing

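Centring each array on its median spot with no loess moved the median gene to 0.21 and the count at 2 h from 2391 to 10491. Centring on the median of the genes tested, an alternative chosen after seeing the data, gave 10008, a fit of the 4 arrays alone gave 369, and leaving out each array in turn gave 1258 to 2060. The difference from resting cells at 16 h was called for 48 genes, and for 19 with the scanner software's log ratio, 302 with median centring, 274 with a replicate block, 8 with only the compared groups fitted, 527 with centring on the genes tested and 7 without the 3 arrays that correlate across groups (resting 2 h replicate 3 and resting 16 h replicates 1 and 3, also chosen after seeing the data). Leaving out each array in turn gave 23 to 1956. The difference from activated cells at 2 h was called for 956 genes, for 568 with only the compared groups fitted and for 576 to 1097 on leaving out an array. Rises in all 4 groups numbered 386, and 229 with the scanner log ratio, 8146 with median centring, 146 with each group fitted alone, 2819 with centring on the genes tested and 237 without the 3 arrays. Falls in all 4 groups numbered 286, and 92, 42, 3632 and 102 with median centring, each group alone, centring on the genes tested and without the 3 arrays. The cause of these changes was not tested.

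Among the signs that turned with median centring were those of Bst2 0.12, Btk 0.17, Cdt1 0.11, Clnk 0.13, Ctsl 0.25, Ehmt2 0.22, Gnaz 0.064, Gsdme 0.50, Il4ra 0.27, Ipo4 0.20, Itga2b 0.0044, Mcm10 0.060, Mcm2 0.16, Mcm3 0.48, Mcm6 0.32, Mcm7 0.16, Mns1 0.20, Ms4a2 0.43, Ndst2 0.19, Nudt7 0.21, Pimreg 0.094, Psap 0.0016, Ptdss1 0.12, Ptger3 0.33, Rpa2 0.074, Rpl4 0.18, Slc18a2 0.53, Tfe3 0.011, Tpsb2 0.37 and Ttyh3 0.080. With centring on the genes tested they were those of Csf2 -0.021, Ctsl 0.047, Ehmt2 0.021, Gsdme 0.30, Il13 -0.055, Il4ra 0.070, Mcm3 0.27, Mcm6 0.11, Ms4a2 0.23, Nudt7 0.0068, Ptger3 0.13 and Slc18a2 0.32. With the mean of a gene's probes it was Gsdme 0.043 and with the scanner log ratio Rgs12 -0.049. The cause was not tested.

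Deviations of same-numbered samples correlated for replicate 2 with all 3 other groups (0.233 to 0.469) and for replicate 3 with both 16 h groups (0.635 and 0.346), but not for replicate 1 (-0.449 to 0.0539) or replicate 4 (-0.0445 to 0.0756), so the numbers were not taken to pair the samples. A replicate block gave 2751 calls at 2 h and 1075 against activated cells. With 4 arrays a group and no exchange of dyes, the number of arrays limits the precision, and dim probes give ratios drawn towards 0 by the offset of 50.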
